A study of Mus musculus with 10 samples.

Results

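This account covers the genes that build and anchor the contractile apparatus of heart muscle: the sarcomere, the Z-disc and the costamere. Members were 46 mouse gene symbols of these structures, and a probe was taken when its symbol was one of them. Of the 26423 probes of the array 52 met this rule, and 45 of the 46 genes had at least 1 probe. No probe was annotated to Mylk3, the cardiac kinase of the myosin regulatory light chain. After removal of probes with an intensity below 1 in any sample, 51 of the 19976 remaining probes belonged to members. On the array 42 of the genes had 1 probe, and Ldb3, Pdlim5 and Tpm1 had several. The probe removed was a Tpm1 probe that was not found on any array.

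RNA came from the left ventricle of male C57BL/6J mice that were 8 weeks old and underwent either transverse aortic banding (TAB) or a sham operation. The labels name no other manipulation of either group. Days 3, 5, 7, 14 and 28 from the operation each had 1 TAB and 1 sham sample, measured on arrays read in 1 colour, which gave 5 samples per operation and 10 in all. TAB narrows the aorta and loads the left ventricle with pressure, and the number of mice behind each sample is not given in the sources used here.

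Heart muscle cells shorten because myosin heads of the thick filament pull on actin of the thin filament, and both filaments are held in register by the M-band, the Z-disc and the giant spring protein titin. The costamere couples the Z-disc to the cell membrane, and the intercalated disc couples neighbouring cells. Proteins at the Z-disc, at the costamere and along titin also sense stretch, and several of their genes are known to respond when a ventricle is overloaded.

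All 10 arrays found 49 of the 51 probes. The exceptions were Myoz1, found on 2 arrays, and Trim55, found on 1, and both are therefore not well above background. Myl2, the ventricular regulatory light chain, had raw intensities of at least 65000, taken here as saturated, on all 5 sham and on 4 of the 5 TAB arrays. By day from 3 to 28 they were 61879, 65465, 65465, 65464 and 65470 in TAB and 65473, 65465, 65466, 65466 and 65466 in sham. These 3 probes stayed in the fit over all probes, where none was called, but the group medians, the counts of ratios above and below 0 and the plots use the other 48 member probes. The raw median of an array ran from 34 to 57, and 40.2% to 47.3% of its probes were not found. The number of arrays limits the precision. Intensities below are normalized, without unit, and can be compared between samples for the same probe only.

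The TAB effect was tested as the mean of the 5 same-day log2 ratios of TAB to sham with limma over all kept probes, and a probe was called when its Benjamini-Hochberg adjusted p was under 0.05. Of the 51 member probes 12, from 11 genes, rose after TAB, which is 23.5%, beside 7.47% of all probes tested. These 11 genes were Fhl1, Synpo2l, Xirp2, Ankrd23, Flnc, Ankrd1, Tpm3, Pdlim5, Pdlim3, Xirp1 and Des. A further 2 member probes, of Synpo2 and of Ldb3, fell, which is 3.92%, beside 6.73% of all probes. The calls depended on the setting. With probes below 1 kept and set to 1, 4 member probes were called higher (7.69%, beside 0.999% of all probes), those of Fhl1, Synpo2l, Xirp2 and Ankrd1. Called lower were 0 member probes, beside 0.405% of all probes. The other 10 of the probes called before had adjusted p-values of 0.0583 to 0.101. At an unadjusted p under 0.05, 10 member probes were lower in this setting (19.2%, beside 13.1% of all probes). With probes below 1 removed, 10 were lower as well (19.6%, beside 18.1%). Lower calls were more in other fits: with 50 added before log2 there were 8 (15.7%, beside 12.6% of all probes), with trend and robust on 7 (13.7%, beside 12.2%), and over probes found on all 10 arrays 9 of 49 (18.4%, beside 18.3%). Over those 49 probes 14 were called higher (28.6%, beside 16.3% of all probes found on all 10 arrays). The adjusted p-values of the 12 higher and 2 lower calls given first ran from 0.0142 to 0.0498. When the samples of day 3, of day 5 or of day 7 were left out, limma called 0 member probes in either direction, without day 14 it called 3 higher and 0 lower, and without day 28 it called 10 and 2. Calls over all probes were 13 higher and 0 lower without day 3, and 33 and 2 without day 5. They were 21 and 2 without day 7, 126 and 58 without day 14, and 1455 and 1318 without day 28. In these 5 fits 13 to 14 member probes had a positive mean ratio at an unadjusted p under 0.05 (25.5% to 27.5%, beside 12.4% to 15.7% of all probes). Whether fewer cells of a type or less RNA per cell lay behind a lower value cannot be told apart in whole tissue.

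Of the 12 risen probes 6 belonged to the costamere, the intercalated disc and the stretch response, 5 to the Z-disc and 1 to the thin filament. In the costamere, intercalated disc and stretch response group 6 of 9 probes rose, and the median of the mean log2 ratios was 1.08. In the Z-disc and intermediate filament group 5 of 18 rose, 2 fell and 11 did not pass the test, with a median of 0.09. Among 9 thin filament probes 1 rose, with a median of −0.14. None of the 8 probes of the thick filament, titin and M-band and none of the 4 probes of myosin folding and sarcomere turnover passed limma at an adjusted p under 0.05, and their medians were −0.13 and −0.37. At an unadjusted p under 0.05 the first of these groups held 1 probe and the second 2, all lower, where 18.1% of all probes were lower at that threshold. The median over all kept probes was −0.05, and over the 48 member probes −0.09, with 21 probes above 0 and 27 below.

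**Figure D1:**
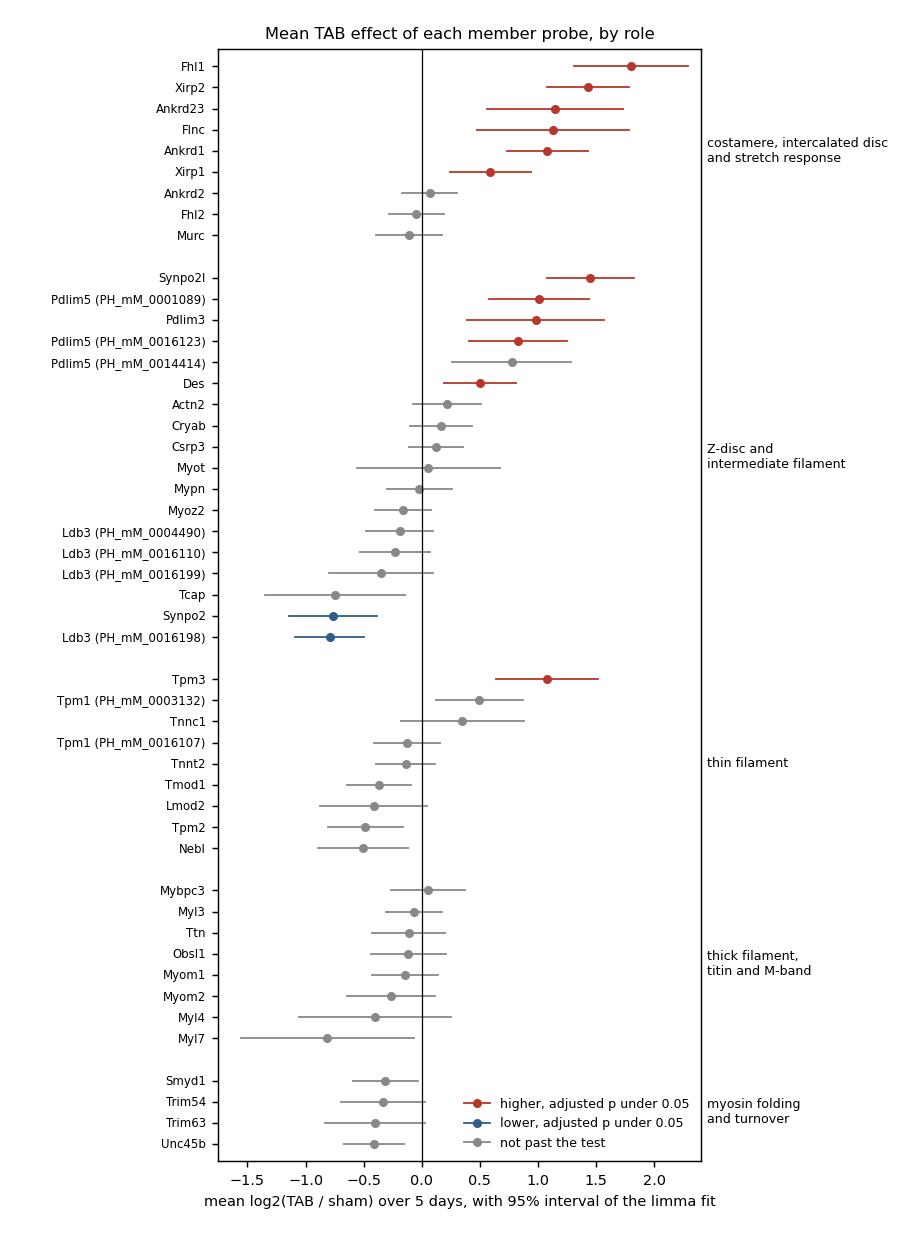
Mean log2 ratio of TAB to sham over the 5 days for each of 48 member probes (x axis), grouped by role from top to bottom, with the 95% interval of the limma fit. Red points rose and blue points fell at an adjusted p under 0.05, and grey points did not pass. Points to the right of 0 are densest in the uppermost group, where 6 of 9 are red, while all 4 points of the lowest group lie to the left of 0.

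Without a test, 13 member probes had all 5 TAB samples above all 5 sham samples, which is 25.5%, beside 8.78% of all probes. Another 3 had all TAB samples below all sham samples (5.88%, beside 7.59% of all probes). The TAB sample exceeded the sham sample of the same day on all 5 days in 17 member probes (33.3%, beside 15.6% of all probes), and was lower on all 5 days in 9 (17.6%, beside 17.4%).

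Markers of other cells moved with these results. All 7 leukocyte marker probes and 3 of 5 fibroblast marker probes rose, and their summed intensities, in which bright probes weigh most, did not overlap between TAB and sham: 3740 to 10919.8 against 2051 to 2772 for leukocytes, and 54513 to 74776 against 43344 to 47918 for fibroblasts. Of 13 cardiomyocyte marker probes 3 fell and none rose, and the sum of the 13 was 218886 to 228436 in TAB and 245882 to 269287 in sham. Those that fell were the Atp2a2 probes PH_mM_0016288 and PH_mM_0007334 and the dimmer Mb probe. The brighter Mb probe had a mean log2 ratio of −0.04 (limma adjusted p = 0.849). Smooth muscle markers, of which 1 of 5 probes rose (Tagln), overlapped in sum, at 3896 to 5392 in TAB and 4406 to 5315 in sham. Of 9 skeletal muscle markers 4 had a kept probe, none past the test, with a sum of 158 to 272 in TAB and 248 to 271 in sham, and Atp2a1 and Actn3 found on no array. Among 6 atrial markers Nppa alone rose. The part of these marker differences in the values of Tpm3, Flnc and the other members was not tested.

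The promoters of 5 of the risen genes are shown because their windows hold a motif of a factor known to act on muscle genes. Each line gives 250 bases that end 1 base before a transcription start in RefSeq, 5′ to 3′ on the strand of the gene, on build GRCm38.p6. For genes with several starts the one farthest upstream is shown. Capitals mark matches on either strand to the MCAT motif (CATTCC), the CArG box, the MEF2 site or the TATA box (TATAAA).
Fhl1, chrX:56779433-56779682 (plus strand): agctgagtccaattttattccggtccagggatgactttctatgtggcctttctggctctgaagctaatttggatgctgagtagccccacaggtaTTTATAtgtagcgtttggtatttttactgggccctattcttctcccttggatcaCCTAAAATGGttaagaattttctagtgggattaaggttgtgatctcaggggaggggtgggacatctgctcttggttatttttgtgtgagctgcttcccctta
Synpo2l, chr14:20668355-20668604 (minus strand): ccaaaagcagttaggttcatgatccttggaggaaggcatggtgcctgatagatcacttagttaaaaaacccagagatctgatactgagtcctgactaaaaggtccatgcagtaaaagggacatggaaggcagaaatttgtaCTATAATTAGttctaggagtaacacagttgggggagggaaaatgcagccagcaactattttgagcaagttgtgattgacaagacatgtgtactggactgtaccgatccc
Xirp2, chr2:67445752-67446001 (plus strand): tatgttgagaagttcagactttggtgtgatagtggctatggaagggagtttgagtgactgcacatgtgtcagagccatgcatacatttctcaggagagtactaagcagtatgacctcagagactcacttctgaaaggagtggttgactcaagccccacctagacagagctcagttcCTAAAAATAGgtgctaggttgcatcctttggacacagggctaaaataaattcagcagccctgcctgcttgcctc
Ankrd1, chr19:36119845-36120094 (minus strand): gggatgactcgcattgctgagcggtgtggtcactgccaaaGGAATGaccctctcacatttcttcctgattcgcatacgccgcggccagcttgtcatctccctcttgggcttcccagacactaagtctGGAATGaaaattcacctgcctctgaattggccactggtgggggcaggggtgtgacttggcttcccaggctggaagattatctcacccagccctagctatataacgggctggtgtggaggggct
Pdlim3, chr8:45885237-45885486 (plus strand): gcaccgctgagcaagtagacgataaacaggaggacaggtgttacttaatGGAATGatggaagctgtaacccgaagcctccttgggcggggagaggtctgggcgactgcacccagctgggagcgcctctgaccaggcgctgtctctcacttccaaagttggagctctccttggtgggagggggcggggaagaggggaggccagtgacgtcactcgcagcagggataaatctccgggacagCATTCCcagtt

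MCAT is bound by TEAD factors, the CArG box by serum response factor, and the MEF2 site by the MEF2 factors. The window of Ankrd1 held MCAT on the opposite strand from 123 and from 210 bases before the start, and that of Pdlim3 held it from 11 and from 201 bases before the start. The capitals in Fhl1 mark a CArG box from 102 bases and a TATA box, on the opposite strand, from 156 bases before the start. Those in Xirp2 and Synpo2l mark MEF2 sites, from 74 and from 109 bases before the start.

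Of the 46 members 39 had a promoter window in the RefSeq table, with 54 windows among them. MCAT was found in 15 of the 54 windows (27.8%), beside 12.6% of the 32851 windows of all genes. The CArG box was found in 9 (16.7%, beside 1.47%), the MEF2 site in 8 (14.8%, beside 2.92%) and the TATA box in 10 (18.5%, beside 12.4%). Windows of 1 gene can overlap and share a match. MEF2 and TATA matches overlapped each other in Fhl2 and Synpo2, and no other pair of motifs overlapped in a member's window. The matches were not confined to genes that rose: Tnnc1, Tnnt2, Trim63 and Tmod1 also held MCAT, Myl3 and Myl7 held MCAT and a CArG box, and Ttn, Mybpc3 and Myoz2 held a MEF2 site. Of the 10 genes called higher that had a window, 4 held MCAT, 1 a CArG box and 2 a MEF2 site. Among all 39 members with a window the shares of genes were 38.5%, 17.9% and 17.9%. Among all genes with a window they were 14.4%, 1.62% and 3.42%.

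Among the stretch response genes, Fhl1 had the largest mean ratio. Fhl1 is a protein with LIM domains that binds titin and takes part in stretch sensing. In the order of the 5 days, used for all lists of values that follow, its intensity was 4596, 4788, 4826, 4233 and 3868 in sham and 22384, 24731, 14689, 11489.9 and 9483 in TAB. All TAB samples lay above all sham samples, and TAB was highest on days 3 and 5 while sham stayed between 3868 and 4826. The mean log2 ratio was 1.80 ± 0.20 (SE, 5 days), a 3.48-fold rise (limma, adjusted p = 0.0148). Fhl1 was the single member past 2 SDs of all log2 ratios on more than 1 day, with 2.28 on day 3 and 2.37 on day 5. Its relative Fhl2, a LIM protein of the same family, ran from 10893 to 13997 in TAB and from 11191 to 13279 in sham, and did not pass the test (adjusted p = 0.779).

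Xirp2 and Xirp1 encode Xin proteins, which bind actin at the intercalated disc. The Xirp2 probe gave 26816, 28486, 22384, 26426 and 22130.1 in TAB and 8692, 7807, 9483, 10821 and 10128 in sham. The lowest TAB sample was above the highest sham sample by a wide gap on this scale, and the mean rise was 2.69-fold (log2 1.43 ± 0.14, limma adjusted p = 0.0142, the lowest adjusted p of any member). For Xirp1 the values were 1827, 1499.7, 1476, 1150.2 and 1031 in TAB and 971, 851, 960.5, 824 and 945 in sham. TAB was again above all sham samples, but by little on day 28, and the mean rise was 1.51-fold (log2 0.59 ± 0.15, adjusted p = 0.0469).

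The muscle ankyrin repeat proteins Ankrd1, Ankrd2 and Ankrd23 sit on the N2A region of titin and can enter the nucleus. Ankrd1, also called CARP, is a widely used marker of the loaded ventricle, and its probe read 21086, 23834, 21908, 23432 and 21086 in TAB and 7348, 12882, 9172, 12188 and 12244 in sham. The TAB values stayed within a narrow band on all days, above every sham value, while sham was lowest on day 3. The mean rise was 2.11-fold (log2 1.08 ± 0.14, limma adjusted p = 0.0178). Ankrd23 gave 8874, 5218, 4166, 5032 and 5216 in TAB and 3065, 1894, 2724, 3937 and 1531 in sham. It was highest in TAB on day 3 and lowest in sham on day 28, and all TAB samples were above all sham samples. Its log2 ratio went from 1.53 at the start to 0.35 by day 14 and 1.77 at day 28, the last past 2 SDs. The mean rise was 2.21-fold (log2 1.15 ± 0.24, adjusted p = 0.0355). Ankrd2, the family member typical of slow skeletal muscle, overlapped between the groups, from 108 to 138 in TAB and from 109 to 129.9 in sham (adjusted p = 0.67).

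Flnc encodes filamin C, which cross-links actin at the Z-disc and the costamere. Its intensity was 8712, 9138, 6568, 4582 and 4671 in TAB and 2843, 2429, 2652, 3170.1 and 3852 in sham. The groups did not overlap, but TAB was lower on days 14 and 28 than before while sham was highest on day 28, and the log2 ratio went from 1.91 on day 5, past 2 SDs, to 0.28 on day 28. The mean rise was 2.19-fold (log2 1.13 ± 0.27, limma adjusted p = 0.0442). Murc, the muscle cavin of the caveolae, ran from 1025 to 1374 in TAB and from 1148 to 1535 in sham, with a mean log2 ratio of −0.11 (adjusted p = 0.565).

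At the Z-disc, Synpo2l had the largest rise. It belongs to the synaptopodin family of actin-binding proteins, and its probe gave 1852, 1884, 1916, 2177 and 1475 in TAB and 498, 576, 726, 1011 and 665 in sham. Every TAB sample was above every sham sample, the mean rise was 2.73-fold (log2 1.45 ± 0.15, limma adjusted p = 0.0143), and on day 3 the log2 ratio of 1.89 was past 2 SDs. Synpo2, or myopodin, of the same family went the other way, with 149, 111, 137, 175 and 203 in TAB and 211, 280.4, 248, 272 and 289 in sham. All TAB samples were below all sham samples, most so on day 5, and sham was 1.70-fold higher on average (mean log2 ratio −0.77 ± 0.16, adjusted p = 0.0331).

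Pdlim3, Pdlim5 and Ldb3 are PDZ and LIM domain proteins that bind α-actinin at the Z-disc. Pdlim3 read 2445, 2347, 2468, 1570.2 and 1009 in TAB and 1039, 859.8, 828, 1119 and 907 in sham. It was well above sham in TAB through day 7, but on day 28 the TAB sample lay among the sham samples of other days, so the groups overlapped. The mean rise was 1.97-fold (log2 0.98 ± 0.24, limma adjusted p = 0.0479).

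Pdlim5 had 3 probes, 2 of which rose. The probe PH_mM_0001089 gave 882, 707, 618, 542 and 460.5 in TAB and 308, 312, 270.2, 346 and 322 in sham (2.02-fold, log2 1.01 ± 0.18, limma adjusted p = 0.0264). The probe PH_mM_0016123 gave 1872, 1547, 2118, 1190.2 and 1273 in TAB and 784, 772, 1004, 990.4 and 871 in sham (1.78-fold, log2 0.83 ± 0.17, adjusted p = 0.0351). The third, PH_mM_0014414, was dimmer, at 93.2, 97, 90.9, 70 and 66.9 in TAB and 41.7, 38.5, 47.8, 63.8 and 53.8 in sham, and missed the threshold (log2 0.77 ± 0.21, adjusted p = 0.0591). In each of the 3 probes all TAB samples exceeded all sham samples and the ratio was smaller on days 14 and 28 than on days 3 to 7.

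Ldb3, also called Cypher or ZASP, had 4 probes that did not behave alike. The probe PH_mM_0016198 was the dimmest and fell, with 53.7, 42.4, 88, 41 and 56.9 in TAB and 81.4, 88.4, 174, 61 and 95.1 in sham. TAB was below the sham sample of its own day on all 5 days, although the groups overlapped because both were high on day 7, and sham was 1.73-fold higher (mean log2 ratio −0.79 ± 0.12, limma adjusted p = 0.0220). The other 3 probes had mean log2 ratios of −0.19, −0.23 and −0.35 with adjusted p-values of 0.311, 0.247 and 0.237, and each was higher in TAB than in sham on day 28. The call of PH_mM_0016198 needed the pairing by day: without the block its adjusted p was 0.0812. Which transcripts of Ldb3 each probe reads was not determined here.

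Des encodes desmin, the intermediate filament that links the Z-discs to each other and to the membrane. It read 6908, 6353, 6833, 5650.5 and 5492 in TAB and 4191, 4400.5, 4196, 5154 and 4092 in sham. TAB was above all sham samples, with the smallest same-day gap on day 14, and the rise of 1.42-fold was the smallest that passed (log2 0.50 ± 0.13, limma adjusted p = 0.0498). Actn2, the α-actinin of the sarcomere, ran from 28486 to 35376 in TAB and from 19140.5 to 31512 in sham, its low value being the sham sample of day 7 (mean log2 ratio 0.21, adjusted p = 0.262). Csrp3, the muscle LIM protein, was above all sham samples in all TAB samples, but by a mean log2 ratio of only 0.12 (adjusted p = 0.416). Cryab, the small heat shock protein that protects desmin, had a mean log2 ratio of 0.17 (adjusted p = 0.343).

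Tcap, or telethonin, which caps the end of titin in the Z-disc, gave 3014, 7988, 7807, 8801 and 13997 in TAB and 7677, 16609, 16728, 7469.9 and 19315 in sham. It was less than the sham sample of the same day on days 3, 5, 7 and 28 and more on day 14, and its mean log2 ratio of −0.75 ± 0.25 did not pass (limma adjusted p = 0.0912). Both groups spread widely, with TAB lowest on day 3 and sham low on days 3 and 14. The calsarcin Myoz2 (−0.16), myopalladin Mypn (−0.02) and myotilin Myot (0.06) also had mean log2 ratios that did not pass, and Myot was above sham mostly on day 28, at 339 in TAB and 155 in sham. Myoz1, the skeletal calsarcin, lay between 13.9 and 33.2 on all arrays and is not well above background.

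**Figure D2:**
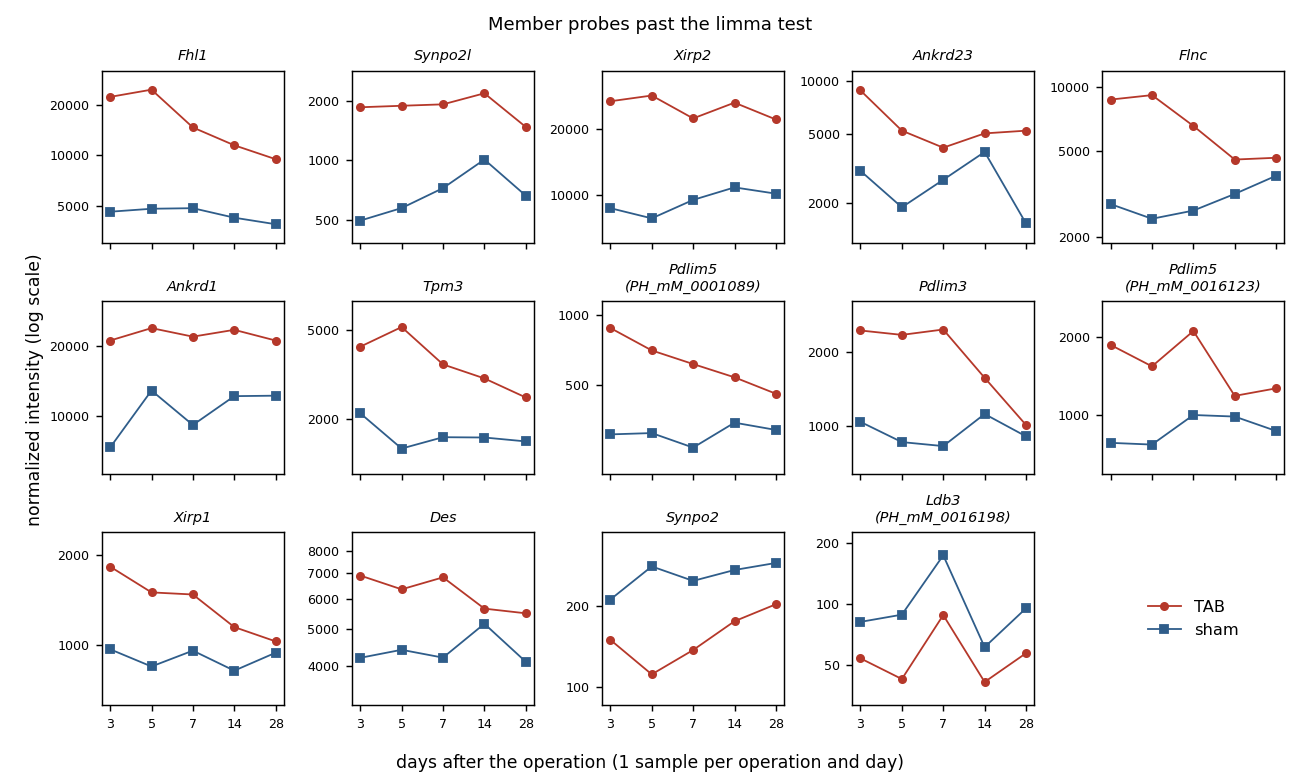
Normalized intensity on a log axis against the day after the operation for the 14 member probes past the limma test, TAB in red circles and sham in blue squares, 1 sample per point and no error bar. The red line lies above the blue line on every day in the first 12 panels and below it on every day for Synpo2 and the Ldb3 probe; in Flnc, Pdlim3 and Xirp1 the lines draw close by day 28.

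In the thin filament the one call was Tpm3. Tropomyosins lie along actin and gate the access of myosin, and Tpm3 is also expressed outside striated muscle. Its probe gave 4210.4, 5152, 3511, 3040.5 and 2500.2 in TAB and 2126, 1479, 1662, 1657 and 1592 in sham. All TAB samples were above all sham samples, with the highest TAB and the lowest sham value both on day 5, and the mean rise was 2.11-fold (log2 1.08 ± 0.18, limma adjusted p = 0.0255). The main cardiac tropomyosin gene, Tpm1, had 2 kept probes that differed. The bright one ran from 25456 to 26816 in TAB and from 23063 to 31909 in sham (mean log2 ratio −0.13, adjusted p = 0.492). The dimmer one, at 1355, 1274, 1246, 1123 and 957 in TAB and 820.3, 800.1, 706, 1057 and 852 in sham, was higher in TAB on each day by a mean log2 ratio of 0.49 ± 0.15 without passing (adjusted p = 0.0792). Tpm2 was dim, with 56.6 to 92.3 in TAB and 89.9 to 116 in sham (mean log2 ratio −0.49, adjusted p = 0.0598). Whether a tropomyosin probe also bound transcripts of another tropomyosin gene was not tested.

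Neither of the troponin genes among the members, Tnnt2 and Tnnc1, passed. Tnnt2, which ties the troponin complex to tropomyosin, ran from 28808 to 34691 in TAB and from 33173 to 35916 in sham (mean log2 ratio −0.14, limma adjusted p = 0.407). Tnnc1, the calcium sensor of the complex, ran from 30723 to 35487 in TAB, and from 28486 to 31512 in 4 sham samples with 12582 in the sham sample of day 5. That single sample carries most of its mean log2 ratio of 0.35 (adjusted p = 0.31), since the ratio was 1.31 on day 5 and between 0.02 and 0.26 on the other days. Nebl, the cardiac nebulin relative nebulette, gave 185, 197, 218, 166 and 194 in TAB and 199, 249, 321, 351 and 269 in sham, lower in TAB on each day, with overlap between the groups (mean log2 ratio −0.51 ± 0.16, adjusted p = 0.0800). Tmod1, which caps the pointed end, and Lmod2, which elongates it, had mean log2 ratios of −0.37 (adjusted p = 0.0759) and −0.41 (adjusted p = 0.186).

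No probe of the thick filament, titin or the M-band passed the test in either direction, although Myl7 passed, lower, over probes found on all 10 arrays. Ttn, titin itself, ran from 6733 to 8692 in TAB and from 7334 to 9483 in sham (mean log2 ratio −0.11, 95% interval −0.43 to 0.20). Mybpc3, the cardiac myosin binding protein, had a mean log2 ratio of 0.06 (95% interval −0.26 to 0.37). Myl3, the ventricular essential light chain, had one of −0.07 (95% interval −0.31 to 0.17), and the M-band genes Myom1, Myom2 and Obsl1 had −0.15, −0.26 and −0.12.

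The atrial light chains stood apart. Myl7, the atrial regulatory light chain, gave 1691, 1229.8, 1483, 818 and 1798 in TAB and 1982, 1863, 2101, 3862 and 2524 in sham. All TAB samples were below all sham samples, but the sham sample of day 14 was far above the other sham samples and the TAB sample of day 14 far below the other TAB samples. The log2 ratio of day 14 was −2.24, past 2 SDs, against −0.23 to −0.60 on the other days, and the mean of −0.81 ± 0.31 did not pass limma (adjusted p = 0.121), but did over probes found on all 10 arrays (adjusted p = 0.0454). Myl4, the atrial essential light chain, gave 1965, 2201, 2623, 1477 and 2186 in TAB and 1751, 2034, 3717, 4350.4 and 2561 in sham. Its ratio too was lowest on day 14, at −1.56, past 2 SDs (mean −0.40 ± 0.27, adjusted p = 0.343). Of the 4 other atrial markers Sln and Mybphl had their TAB minimum and sham maximum in the same pair of samples, and Nppa only its sham maximum. Sln (sarcolipin, an atrial inhibitor of the calcium pump) was at 260.1 in the TAB and 1761 in the sham sample of day 14, and Mybphl at 56.7 and 201. Nppa, the atrial natriuretic peptide, was higher in TAB on all days and reached 16119 in the sham sample of day 14 against 6794 to 9044 in the other sham samples. The summed intensity of the 6 atrial markers, in which a bright probe such as that of Nppa weighs most, was 32033 to 40362 in TAB and 11308 to 26311 in sham. Myl4, Mybphl, Myl7 and Sln had mean log2 ratios of −0.40 to −0.90, none called, and their own sum was 2612 to 4865 in TAB and 4492 to 10174 in sham. Bmp10 was found on no TAB and on 3 sham arrays, so no fold is given. Without day 14 the mean log2 ratio was −0.45 for Myl7 and −0.11 for Myl4. The part of atrial tissue in these 2 samples was not tested.

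The genes of myosin folding and turnover were lower in TAB on most days, and their calls depended on the setting. Unc45b, the myosin chaperone of striated muscle, gave 826, 719, 774, 696 and 688 in TAB and 976, 962, 1017, 1066 and 898 in sham. All TAB samples were below all sham samples, and sham was 1.33-fold higher on average, just outside the threshold (mean log2 ratio −0.41 ± 0.10, limma adjusted p = 0.0505). It passed in 6 of 16 alternatives, with adjusted p-values of 0.0105 to 0.0450, and the range over all 16 was 0.0105 to 0.139. Smyd1, the methyltransferase that works with it, was lower in TAB on all 5 days (mean log2 ratio −0.31 ± 0.11, adjusted p = 0.113), and passed with 50 added, over probes found on all 10 arrays and with trend and robust on (0.0344 to 0.0498). The ubiquitin ligases of the sarcomere were Trim63 (MuRF1, −0.40, adjusted p = 0.172) and Trim54 (MuRF3, −0.33, adjusted p = 0.173). Trim55 (MuRF2) read 17.2, 12.7, 17.3, 7.67 and 11.8 in TAB and 15.9, 16.6, 24.9, 14.1 and 18.1 in sham and was found on 1 array only, so no fold is given. The 4 mean ratios of this group other than that of Trim55 were below 0, also with median scaling only, with quantile normalization within each operation and with cyclic loess.

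**Figure D3:**
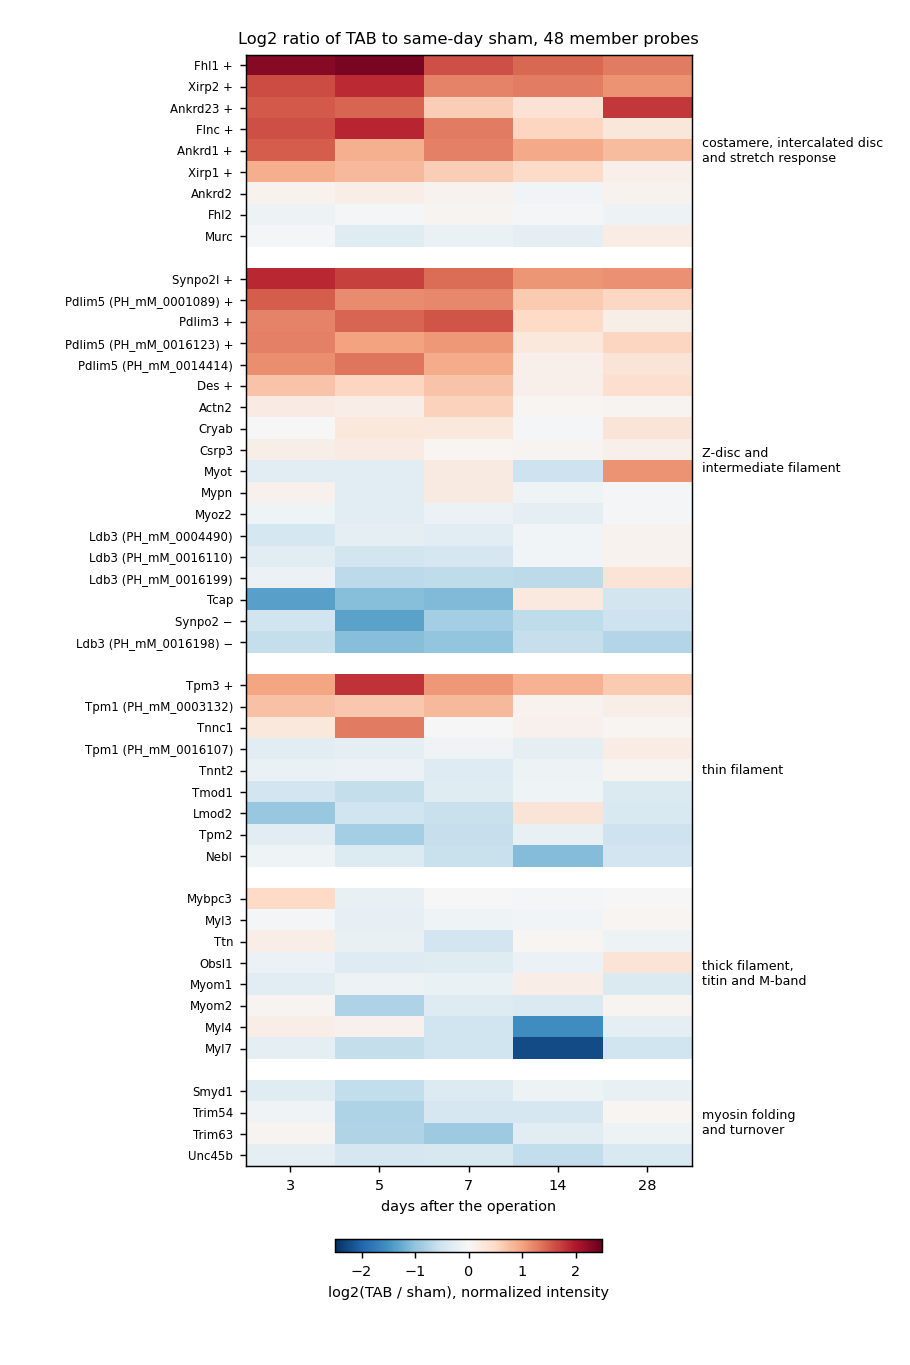
Log2 ratio of TAB to the sham sample of the same day for 48 member probes (rows, grouped by role) on 5 days (columns), from blue (lower in TAB) to red (higher). A plus or minus after a name marks a probe past the limma test. Red concentrates in the upper rows of the first 2 groups and in Tpm3, and is deepest for Fhl1 on days 3 and 5; the deepest blue is Myl7 on day 14.

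The ratios of the risen probes were larger on the early days in these samples, though the contrast of early and late days gave no call. The median log2 ratio of the 12 risen probes was 1.52, 1.46 and 1.22 on days 3, 5 and 7, and 0.59 and 0.60 on days 14 and 28. All 12 had a larger mean ratio on days 3 to 7 than on days 14 and 28, as did 83.4% of the 1492 probes of the whole array that rose. The 7 leukocyte and 3 fibroblast marker probes that rose did so too, with median log2 ratios of 1.58 early and 0.86 late for leukocytes and of 4.1 and 2.63 for fibroblasts, and the part of these cells in the members' course was not tested. The SD of all log2 ratios was also lower late, at 0.729 and 0.690 on days 14 and 28 against 0.856 to 0.937 before. Flnc went from 1.61 early to 0.40 late, a difference of 1.21 on the log2 scale, and Pdlim3 from 1.42 to 0.32, a difference of 1.10. Xirp2 and Ankrd1 had small differences, of 0.37 and 0.36, and Ankrd23 the smallest, of 0.14. The contrast of early and late TAB effects in limma gave 0 calls among the members (lowest adjusted p = 0.425) and 0% of all probes. At an unadjusted p under 0.05 it gave 7 of the 51 member probes, which is 13.7%, near the 10.4% of all probes. These were Flnc, Pdlim3, all 3 Pdlim5 probes, the dimmer Tpm1 probe and Tcap, each with the larger absolute ratio early, and Tcap in the negative direction.

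**Figure D4:**
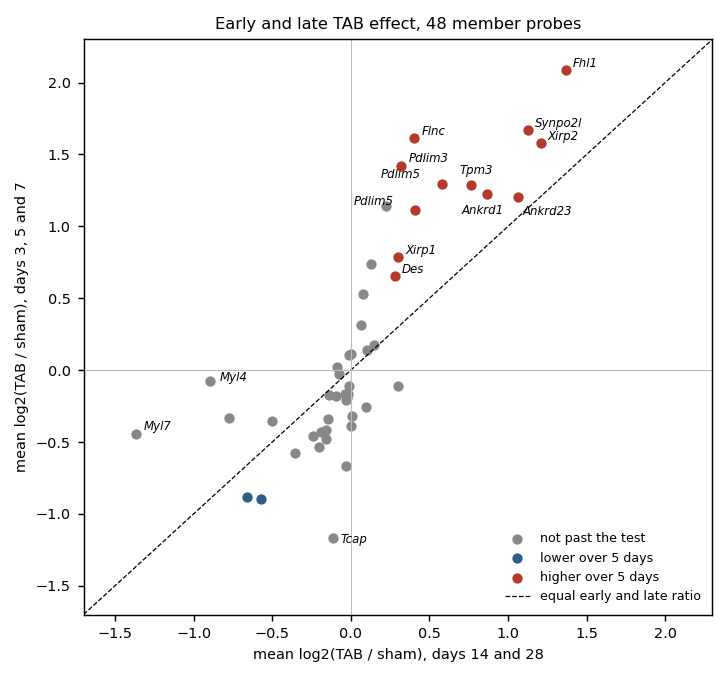
Mean log2 ratio of TAB to sham on days 3, 5 and 7 (y axis) against days 14 and 28 (x axis) for each of 48 member probes, with the dashed line where both are equal. All 12 red points, the probes that rose, lie above the line, Flnc and Pdlim3 farthest from it among them, and Myl7 and Myl4 lie to the left, with their lowest ratios on day 14.

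By the study's own measure, a log2 ratio more than 2 SDs of that day from 0, 6 member probes stood out on at least 1 day, which is 11.8%, beside 17.9% of all probes. That order turned with 50 added before log2 (16 member probes, 31.4%, beside 12.6%) and over probes found on all 10 arrays (15 of 49, 30.6%, beside 13.2%). Past 2 SDs on at least 1 day were 4 member probes higher (7.84%, beside 10.7% of all probes), namely Fhl1, Synpo2l, Flnc and Ankrd23. Another 2 were lower (3.92%, beside 8.59%), namely Myl4 and Myl7. With 1 sample per operation and day this carries no test.

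Further genes of the same structures were counted from lists of their own. Of 22 kept probes for 20 further contractile filament genes 5 rose and 2 fell, beside 7.47% and 6.73% of all probes. The largest was the probe annotated to both Myh7, the slow myosin heavy chain, and LOC100862557, at 6528, 6297, 4692, 10101 and 7913 in TAB and 654, 1034, 1056, 3989 and 1219 in sham (5.36-fold, limma adjusted p = 0.0152). Acta1, the skeletal actin that the loaded ventricle re-expresses, rose 3.39-fold (adjusted p = 0.00548), and both probes of Mybpc2, the fast myosin binding protein, rose 2.10-fold and 2.08-fold. The remaining probe that rose was Myl1, and Tnnt1 and Tmod4 fell. In contrast Myh6 and Actc1, the adult cardiac myosin and actin, had mean log2 ratios of −0.14 and 0.11 (adjusted p = 0.636 and 0.601).

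Of 49 kept probes for 32 further Z-disc and costamere genes 10 rose and 3 fell, beside 7.47% and 6.73% of all probes. Actn1, the α-actinin of non-muscle cells, rose 3.34-fold and 3.10-fold by its 2 probes, Synpo 2.81-fold by 1 of 2 probes and Pdlim7 2.28-fold by 1 of 2. Ilk and Parva, which join integrins to actin, and 1 of 2 probes of the integrin gene Itgb1 also rose, as did Pdlim1, Csrp1 and Ptrf. Vcl, or vinculin, and Tln1, or talin, did not pass, with mean log2 ratios of −0.04 and 0.66. Those that fell were 2 of 3 probes of Sgca, α-sarcoglycan, and Itgb1bp2, or melusin. Of 19 probes for 16 further chaperone and turnover genes only Hspb7 rose (1.76-fold, limma adjusted p = 0.0322).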

How the data were processed

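Left-ventricle RNA of 5 TAB and 5 sham samples was hybridized to Mouse Whole Genome OneArrays in Cy5. The authors deposited a raw intensity per probe, background-subtracted in a way not given in the sources used here and not scaled. A detection p-value came with it and was not used, and a negative flag, whose meaning is not given, was read as a spot not found.

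As in the study's methods, arrays were brought to the same median and the 6447 probes that fell under 1 anywhere were dropped. Quantiles were then equalized using rank medians over all 10 arrays, with ties averaged, where the study took them per condition; that version was an alternative. Log2 intensity of all 19976 probes was tested in limma (lmFit, then eBayes without trend or robust options) blocked by day, with p-values adjusted by Benjamini-Hochberg. Day pairs the samples by the labels; same-day deviations from the group means correlated at 0.112, 0.00148, 0.0466, 0.0164 and 0.0163 on days 3 to 28. P-values measure spread over days, and a single day has none. The TAB sample of day 14, given as 15 days in 1 label, was used as day 14.

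Members and lists were chosen with earlier results of these data known. All samples were given for called member probes, the 2 probes per role with the largest absolute mean ratio, probes past 2 SDs on 3 or more days and saturated probes. Tcap and the uncalled Pdlim5 and Tpm1 probes, and the further genes named under the limit of that rule, were added after their values were seen. Alternatives were other scalings and filters, 50 added before log2, 1 probe per gene, other limma settings and thresholds, and each day left out. Tools were R 4.3.3 with limma 3.58.1 and Python 3.11.15 with pandas 2.3.3 and matplotlib 3.10.9, tested on simulated data.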

Additional observations from a re-analysis of the deposited data

Results flagged for a closer look

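A value far from the other 4 of its group, by Dixon's test at 95%, was seen in 5 of 96 groups of 5 member samples (48 probes, leaving out the saturated Myl2, Myoz1 and Trim55), and chance alone flags about 5% of groups. Of these, 1 was in TAB and 4 in sham. The gap divided by the range was 0.847 for Smyd1, highest in TAB on day 28 (4647 against 3711 to 3840), 0.890 for Tnnc1, lowest in sham on day 5 (12582 against 28486 to 31512), and 0.877 for Actn2, lowest in sham on day 7 (19140.5 against 29644 to 31512). The other 2 were low in the sham sample of day 28: 0.768 for Myl3 (34667 against 37205 to 38008) and 0.809 for Tnnt2 (33173 against 35376 to 35916). None of these probes was called. The groups hold samples of different days, so that time after the operation and array noise cannot be told apart in them.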

How the results depend on the processing

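The 12 member probes called higher and the 2 called lower were the same probes with median scaling only and with quantile normalization within each operation, although the split of all calls moved from 1492 higher and 1344 lower to 1747 and 884, and to 1856 and 979. Cyclic loess gave 11 and 2 and a split of 1566 and 1049, 1 probe per gene gave 11 and 2 or 3, and leaving out saturated probes gave 12 and 2. Probes below 1 set to 1 gave 4 higher and 0 lower, with a split of 264 and 107, the number of probes tested being larger. Lower calls were 8 with 50 added before log2, 9 over probes found on all 10 arrays, 4 without the replicate block and 7 with trend and robust on, the cause not tested; higher calls were 14 in each of these 4 fits, and all calls were 2365 higher and 2525 lower, 2058 and 2322, 2016 and 1859, and 2290 and 2436. Without the replicate block, the Ldb3 probe PH_mM_0016198 was no longer called (adjusted p = 0.0812), and Unc45b (adjusted p = 0.0168), Nebl (0.0475), Tpm2 (0.0465) and, higher, the third Pdlim5 (0.0135) and the dimmer Tpm1 probe (0.0319) were. These 5 were also called in the other 3 of these fits, where Tmod1 and Smyd1 fell too; Tcap fell with 50 added and over probes found on all arrays, and Myl7 in the latter. Leaving out 1 day gave 0 to 10 higher and 0 to 2 lower member calls, the fewest without day 3, day 5 or day 7, and fewer samples enter these fits. Over all probes these fits gave 13 to 1455 higher and 0 to 1318 lower calls. The contrast of early and late days gave 0 member calls under every alternative run. Past 2 SDs on at least 1 day were 16 member probes with 50 added (2523 of all probes), 3 with probes below 1 set to 1 (5940) and 15 over probes found on all arrays (1671). An absolute log2 ratio of at least 1 gave 20 (8488), and 3 SDs gave 1 (1146). Of 285 alternatives for 18 named probes with a measured level, 207 kept direction and call, 67 lost the call (55 by leaving out a day), 11 gained it and none turned sign. The 207 include Myl4, Unc45b, Nebl and Myl7, which were not called at first and stayed uncalled in most alternatives. When a day was left out, 55 lost the call and 35 stayed the same.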
